A study of Mus musculus with 8 samples.

Results

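The nuclear-encoded subunits of the oxidative phosphorylation complexes were followed through 8 gene expression libraries of the mouse neural tube. Members were chosen by gene symbol alone, as the genes of the deposited count files named Nduf followed by a, b, c, s or v and a digit (complex I), Sdha to Sdhd (complex II), Uqcr (complex III), Cox4i, Cox5, Cox6, Cox7 or Cox8 (complex IV) or Atp5 (complex V). This rule took 84 of the 26608 genes in the files: 37 of complex I, 4 of complex II, 8 of complex III, 18 of complex IV and 17 of complex V. The embryos were of the inbred strain FVB, were taken at day 8.5 of gestation from diabetic or normal dams, and gave tissue by laser microdissection of frozen sections on either side of the first site of neural tube closure, behind it where the tube was closed and ahead of it where it was still open. Crossing dam with region gives 4 groups of 2 libraries: diabetic closed (libraries 15 and 16), diabetic open (13 and 14), normal closed (11 and 12) and normal open (9 and 10). The labels do not say how the dams became diabetic, or how many embryos or litters went into a library, so the spread between libraries of a group may be in part technical.

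Oxidative phosphorylation takes place in the inner membrane of the mitochondrion. Complexes I (NADH dehydrogenase) and II (succinate dehydrogenase) pass electrons to ubiquinone, complex III passes them on to cytochrome c, complex IV (cytochrome c oxidase) passes them to oxygen, and complex V (ATP synthase) uses the proton gradient that complexes I, III and IV build up to make ATP. Most subunits are encoded in the nucleus and a few in mitochondrial DNA, and the early embryo at neurulation is known to rely heavily on glycolysis while its mitochondria mature.

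Each library was made with the SOLiD SAGE method, which counts 1 short tag per transcript, cut at the CATG site (the site of the enzyme NlaIII, from general knowledge of the method) nearest to the 3′ end. Where the last CATG tag of a gene is also carried by other genes, its counts cannot be assigned to it alone. The tags below, read from GENCODE release M21 transcripts of GRCm38 with the CATG site in capitals and 25 bases in all, show the most abundant member of each of complexes V and IV, 3 members that the comparison of dams turns on, 2 members without counts whose tag another gene also carries, and 1 member without counts whose tag is its own.
Atp5b: CATGcaggccacacaagagccttga
Cox7b: CATGgtgacttctcatttatttaag
Ndufb6: CATGtgcttatacctatgtggtttg
Cox7a2l: CATGttttccacttggatagtctac
Uqcrb: CATGaaactgaagatgtaaaagaag
Cox5b: CATGatagcagcacagaagggactg
Atp5l: CATGtgtaacaggactgctatctga
Ndufs3: CATGtagatcctagaggaaaaggcc
All 8 tags lie in exons, since they were read from spliced transcripts. On GRCm38.p6, RefSeq places Atp5b at chr10:128083307-128090388, Cox7b at chrX:106015700-106022450, Ndufb6 at chr4:40270591-40279421, Cox7a2l at chr17:83501917-83514333, Uqcrb at chr13:66900576-66905350, Cox5b at chr1:36691487-36693388, Atp5l at chr9:44913248-44920742 and Ndufs3 at chr2:90894627-90904721. The tag of Uqcrb is also carried by Gm16089, Gm19326 and Gm5457, so its counts are uncertain.

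Of the 84 members, 83 were found among the GENCODE genes, all but Atp5sl. A tag of their own, on any coding transcript, was carried by 76 members. Of these, 11 (14.5%) had no count in any library, against 30.9% of the 17294 genes of the whole series with a tag of their own. Among these 11, Atp5g2, Ndufs5 and Ndufs6 also had coding transcripts whose last tag is shared with other genes. Only shared tags, or shared tags and none, were found for 6 members, of which 3 had no count (Atp5l, Cox5b and Cox7c) and 3 had counts (Atp5f1, Uqcrb and Uqcrh). Cox7a2, the widely expressed form of a small complex IV subunit, has no CATG site in its coding transcript and had no count. In the whole series, 78.6% of the 1274 genes with only shared tags or none, and 94.9% of the 79 genes with no tag, had no count.

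**Figure D1:**
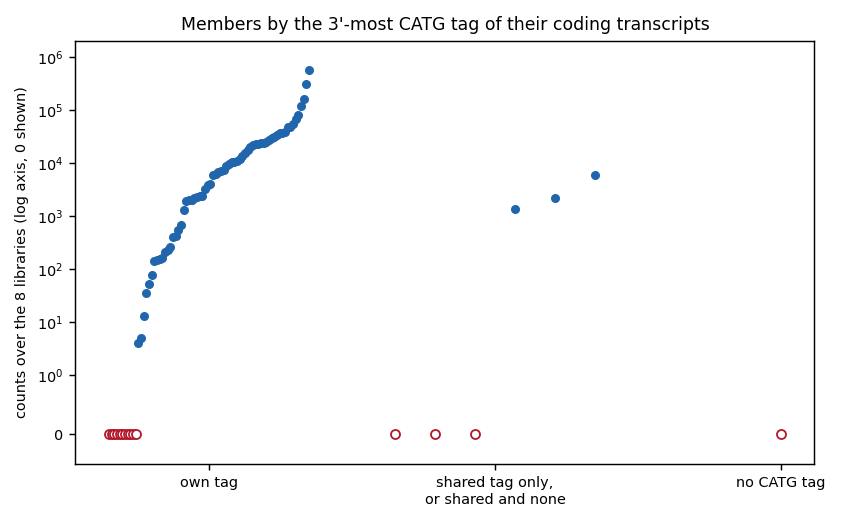
Counts of each of the 83 matched members summed over the 8 libraries (vertical axis, log scale with 0 shown), by the last CATG tags of its coding transcripts. Classes are a tag of its own on any coding transcript, only shared tags (or shared and none), and no tag. Open red circles are the 15 members without a count, of which 11 had a tag of their own, 3 had shared tags and 1 had none.

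Library totals ran from 5041586 to 16655583 counts, and the members together took between 2.82% and 3.28% of them. All levels below are CPM, the usual scaling of counts to a common library total. They are not divided by gene length, because a transcript gives 1 tag whatever its length. A count of 0 still allows a level of 0.180 to 0.595 CPM, depending on the library (3 counts, counting error only). Libraries differed in tissue markers. Markers of neural progenitors (8 of 8 genes counted) summed to 116 CPM in library 13 and to between 819 and 1439 CPM in the other libraries, and Sox2, which marks neural progenitors, stood at 30.9 CPM in library 13 and at 287 to 550 CPM elsewhere. In libraries 12 and 10, Xist (297 and 301 CPM) exceeded Ddx3y (0.444 and 0.882 CPM), and in the other 6 libraries Ddx3y exceeded Xist.

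Of the 84 members, 69 had at least 1 count, 57 had a count in every library, 35 averaged at least 100 CPM and 6 averaged at least 1000 CPM. Complex V and complex IV together held most of the counts, 37.3% and 36.1% of the sum over all members, followed by complex I with 17.5%, complex III with 7.47% and complex II with 1.61%. A large part of complex V was 1 gene, and complex V without Atp5b held 9.77%. The sum over all members was 30852 and 30172 CPM in the diabetic closed libraries, 31978 and 29135 CPM in the diabetic open libraries, 32753 and 28160.2 CPM in the normal closed libraries and 31800 and 30078 CPM in the normal open libraries. Diabetic and normal libraries overlapped, as did closed and open ones. In pieces of tissue, fewer cells of a type and less RNA per cell cannot be told apart.

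**Figure D2:**
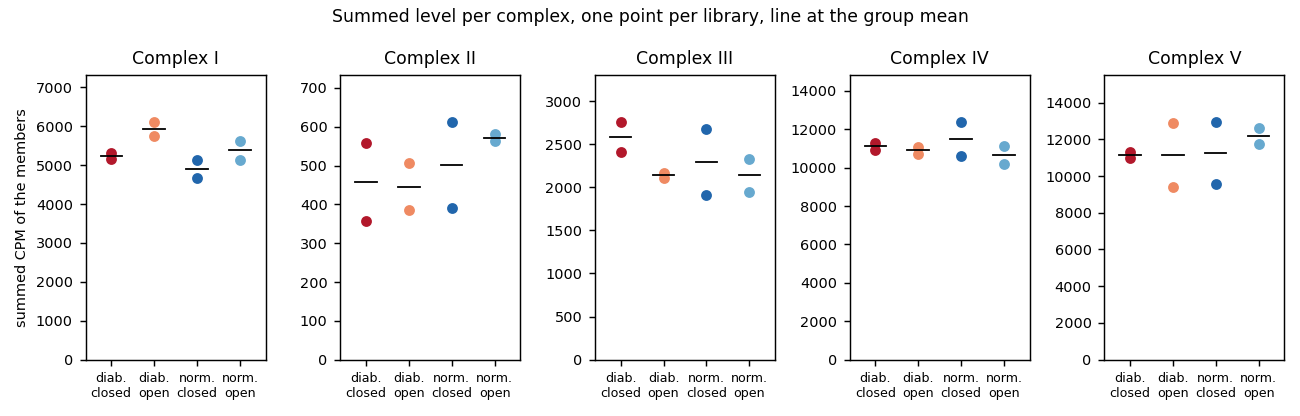
Summed CPM over the members of each complex (vertical axes, each from 0), with 1 point for each library, a line at the mean of each group, and the groups diabetic closed, diabetic open, normal closed and normal open from left to right. Points of diabetic and normal libraries overlap in every panel, and in complex I the diabetic open libraries stand highest at 5759 and 6106 CPM.

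Complex I, the largest complex, had 31 of 37 members counted and none above 1000 CPM on average. Its sum was 5150.4 and 5320 CPM in the diabetic closed libraries, 5759 and 6106 CPM in the diabetic open libraries, 5136 and 4674 CPM in the normal closed libraries, and 5138 and 5624 CPM in the normal open libraries. By dam the mean was 5584 ± 432 CPM in diabetic libraries and 5143 ± 388 CPM in normal libraries (SD, n = 4 each), and by region 5070 ± 277 CPM in closed and 5657 ± 401 CPM in open libraries. Both pairs of groups overlapped. The most abundant members were Ndufa13 and Ndufb6, accessory subunits outside the catalytic core. Ndufa13 had 416 and 675 CPM in the diabetic closed libraries, 629 and 611 CPM in the diabetic open libraries, 442 and 524 CPM in the normal closed libraries and 572 and 376 CPM in the normal open libraries. Diabetic and normal libraries overlapped, as did closed and open ones. The 7 core subunits encoded in the nucleus, which carry the flavin and the iron-sulphur clusters, summed to between 761 and 1224 CPM, and the accessory subunits to between 3913 and 5008 CPM. Of the core subunits, Ndufs3 had no count, and Ndufs1 had none in 3 libraries and at most 7.14 CPM in the others.

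Complex II was seen through 2 of its 4 subunits. Sdha, the flavoprotein that oxidises succinate, had 217 and 389 CPM in the diabetic closed libraries, 305 and 250 CPM in the diabetic open libraries, against 307 and 452 CPM in the normal closed libraries and 414 and 438 CPM in the normal open libraries. Sdhd, a membrane anchor, ran from 82.6 to 201 CPM. Sdhb, the iron-sulphur subunit, and Sdhc, the other anchor, had at most 1.25 and 3.55 CPM in any library and were too low to test. These levels cannot be read as ratios of subunits, since they depend on each gene's tag. The sum of complex II was 452 ± 96.4 CPM in diabetic libraries and 537 ± 99.1 CPM in normal libraries (SD, n = 4 each), and the groups overlapped.

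In complex III the small subunit Uqcr11 was the most abundant member. It had 1864 and 1240.0 CPM in the diabetic closed libraries, 1092 and 1053 CPM in the diabetic open libraries, 1167 and 1291 CPM in the normal closed libraries and 1376 and 1090.1 CPM in the normal open libraries. Library 15 stood highest, and the regions overlapped. Uqcrc1, a core protein of the complex, followed with 362 and 573 CPM in the diabetic closed libraries, 379 and 520 CPM in the diabetic open libraries, 295 and 799 CPM in the normal closed libraries and 398 and 394 CPM in the normal open libraries. Its highest and lowest values were both in the normal closed group. The complex summed to 2359 ± 295 CPM in diabetic libraries and 2218 ± 361 CPM in normal libraries (SD, n = 4 each), with overlap.

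Complex IV held 4 of the 6 members above 1000 CPM: Cox7b, Cox4i1, Cox8a and Cox5a. Cox7b, a small subunit encoded on the X chromosome, had 5232 and 4373 CPM in the diabetic closed libraries, 4591 and 4675 CPM in the diabetic open libraries, 5715 and 4340 CPM in the normal closed libraries and 4350.1 and 3689 CPM in the normal open libraries. Cox4i1, a regulatory subunit, ran from 2201 to 2795 CPM, with a coefficient of variation over the 8 libraries of 0.0896. Cox8a ran from 1402 to 2046 CPM and Cox5a from 792 to 1203 CPM. The sum over complex IV was 11012 ± 245 CPM in diabetic libraries and 11075 ± 942 CPM in normal libraries (SD, n = 4 each). The groups overlapped.

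Complex V was led by Atp5b, the catalytic beta subunit. Atp5b had 7914 and 8194 CPM in the diabetic closed libraries, 9636 and 6590.2 CPM in the diabetic open libraries, 10060.2 and 6760 CPM in the normal closed libraries and 9342 and 8989 CPM in the normal open libraries. The diabetic open and the normal closed libraries each held both a high and a low value, and diabetic and normal libraries overlapped. Atp5g3, 1 of 3 genes that encode the same mature ring subunit c, came next at 392 to 1054 CPM, close to Atp5d, the delta subunit, at 616 to 774 CPM. The complex summed to 11127 ± 1434 CPM in diabetic libraries and 11725 ± 1514 CPM in normal libraries (SD, n = 4 each), with overlap. Atp5s and Atp5sl match the rule by name, although their products are now regarded as associated or assembly proteins rather than subunits.

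Among tissue isoforms, the widely expressed form had more counts for Cox4i and Cox8, but not for Cox6b, where both forms were scarce. Counts depend on each gene's tag, so they do not show which Cox6b form was the more abundant transcript. Cox4i2, the isoform known from lung, ran from 0.176 to 14.8 CPM and made up between 0.00747% (95% Wilson interval 0.00132% to 0.0423%, library 10) and 0.636% (0.561% to 0.720%, library 13) of the counts of Cox4i2 and Cox4i1 together; such intervals cover counting error only. Cox7a1, the heart and muscle isoform, ran from 0 to 8.88 CPM. Cox8b, known from heart and muscle, had at most 0.140 CPM, against 1402 CPM or more of Cox8a. Cox6a2 (muscle), Cox8c (testis) and Ndufa4l2, a paralog of Ndufa4 induced by hypoxia, had no count, while Cox6a1 ran from 72.5 to 143 CPM and Ndufa4, now placed in complex IV, from 4.15 to 8.55 CPM. Cox6b1, the widely expressed form, and Cox6b2, the testis form, were both scarce, at up to 2.23 and 4.23 CPM, with 52 counts of Cox6b1 and 152 of Cox6b2 over all libraries, and Cox7b2 had at most 0.698 CPM.

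Atp5g1 and Atp5g3 were shared out unequally between libraries. Atp5g1 made up 27.1% and 28.5% of the counts of both genes in the diabetic closed libraries, 23.3% and 26.3% in the diabetic open libraries, 19.8% and 43.8% in the normal closed libraries and 18.6% and 52.0% in the normal open libraries. The Wilson intervals of libraries 12 (42.4% to 45.3%) and 10 (50.5% to 53.4%) lay above those of the other 6 libraries. These intervals cover counting error only. Of the 4 coding transcripts of Atp5g1, 2 have a last CATG tag that other genes also carry, so its counts are uncertain in part. Libraries 12 and 10 are also those in which Xist exceeded Ddx3y; the part of this in the share was not tested, and the relation was seen after the values were known. Atp5g2, the third gene for subunit c, had no count. Of its 4 coding transcripts, 2 have a last tag that other genes carry and 1 has no tag.

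**Figure D3:**
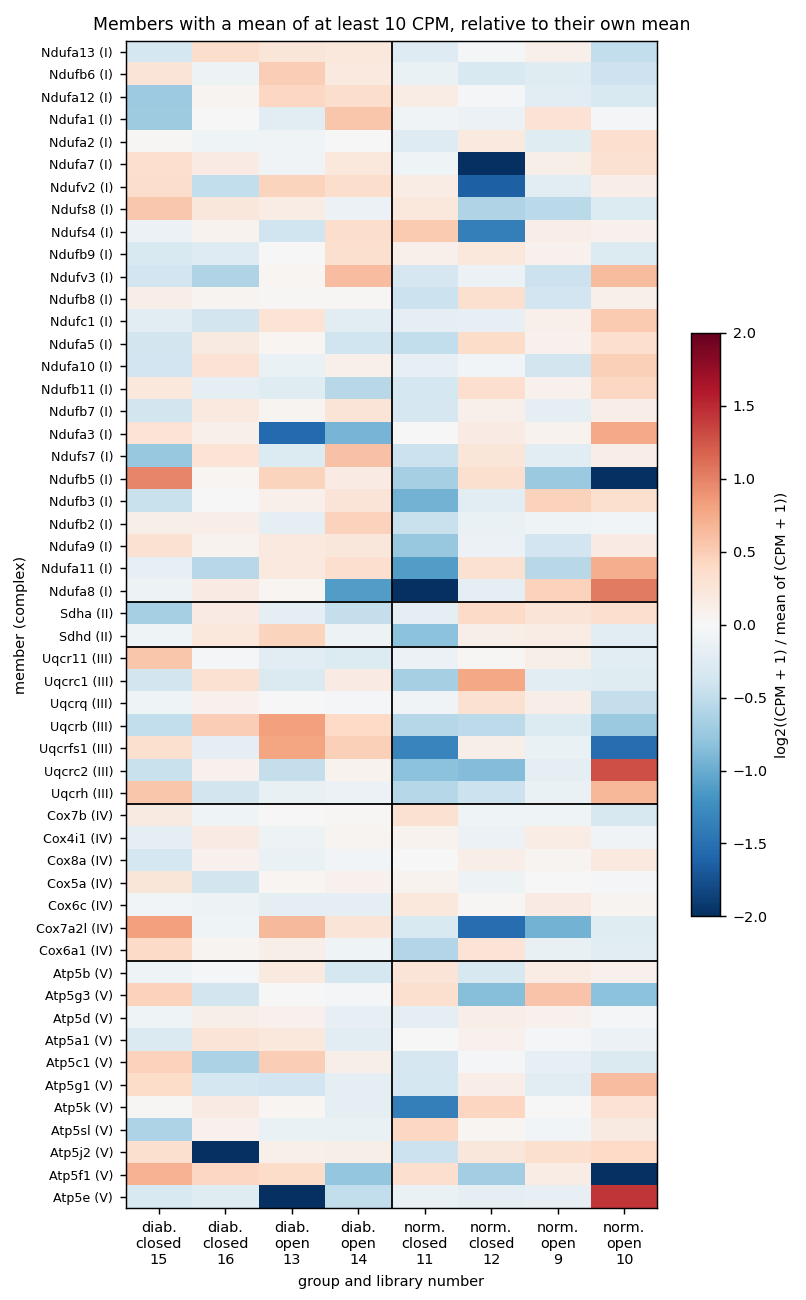
Level in each library of the members with a mean of at least 10 CPM, 1 left out,, as the log2 of (CPM + 1) over its mean of (CPM + 1) (colour scale from -2 to 2, values beyond it at the end colours). Columns run from the diabetic closed to the normal open libraries with a line between dams, members are grouped by complex, and most cells are pale, with single dark cells such as Ndufa7 in library 12 and Ndufb5 in library 10.

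The first comparison asks how the neural tube of embryos from diabetic dams differs from that of embryos from normal dams, with both regions in 1 fit. No member passed the adjusted threshold of 0.05. By edgeR's quasi-likelihood test with Benjamini-Hochberg adjustment, 0 of the 65 members tested were called (0% of all 11779 genes tested were), 4 had an unadjusted p under 0.05 (4.55% of all genes did), and DESeq2 called 0 members (0.314% of all genes). Fold changes were positive for 36 members and negative for 29, with a median log2 fold change of 0.03, against 0.04 for all genes tested. By complex the medians were -0.00067 (I), -0.11 (II), 0.08 (III), 0.05 (IV) and 0.00096 (V). The median standard error of a member was 0.30 on the log2 scale, against 0.67 over all genes tested, which include genes of much lower level. Among genes with a mean of at least 100 CPM the members were no steadier than all genes. The median coefficient of variation over the libraries was 0.226 for members and 0.213 for all genes there. A filter on low counts kept the other 19 members out of the test.

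Cox7a2l, which encodes a protein that joins respiratory complexes into supercomplexes, had the smallest p among the members. Its level was 284 and 151 CPM in the diabetic closed libraries and 254 and 193 CPM in the diabetic open libraries, against 131 and 55.1 CPM in the normal closed libraries and 83.2 and 136 CPM in the normal open libraries. Every diabetic library was above every normal library. The log2 fold change was 1.122 ± 0.31 (SE), with an unadjusted p of 0.0045 and an adjusted p of 0.999 (edgeR's quasi-likelihood test with Benjamini-Hochberg adjustment). With no filter on low counts edgeR called it at an adjusted p of 0.00558, where 0.587% of all genes were called, while the adjusted p was 0.157 by DESeq2. Leaving out 1 library at a time gave log2 fold changes between 0.89 (without library 15) and 1.39 (without library 11), with no call.

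Ndufb6, an accessory subunit in the membrane arm of complex I, had 631 and 493 CPM in the diabetic closed libraries and 745 and 601 CPM in the diabetic open libraries, against 480 and 425 CPM in the normal closed libraries and 445 and 393 CPM in the normal open libraries. The groups did not overlap, by a margin of 493 CPM in library 16 against 480 CPM in library 11. Its log2 fold change was 0.48 ± 0.18 (SE). The groups of 2 members were thus separated upwards (Cox7a2l and Ndufb6; 2.48% of all genes tested were), and those of 3 members downwards, among them Atp5e and Cox6c (1.15% of all genes were).

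Cox6c, a small complex IV subunit, had 824 and 793 CPM in the diabetic closed libraries and 753 and 742 CPM in the diabetic open libraries, against 992 and 870.1 CPM in the normal closed libraries and 960.0 and 888 CPM in the normal open libraries. The groups did not overlap, but the log2 fold change of -0.27 ± 0.15 (SE) had an unadjusted edgeR p of 0.0964. Atp5e, the epsilon subunit of ATP synthase, was near 10 CPM in most libraries, with 2.40 CPM in library 13 and 35.5 CPM in library 10. Its log2 fold change was -1.11 ± 0.75 (SE).

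Uqcrb, a subunit of complex III near its ubiquinone site, had 55.3 and 111 CPM in the diabetic closed libraries and 138 and 103 CPM in the diabetic open libraries, against 52.0 and 53.6 CPM in the normal closed libraries and 64.4 and 46.0 CPM in the normal open libraries. Library 15 lay within the range of the normal libraries. The log2 fold change was 0.87 ± 0.29 (SE), from counts on a tag that other genes share. Ndufs8, a core subunit with iron-sulphur clusters, had a log2 fold change of 0.46 ± 0.21 (SE), and Sdha one of -0.49 ± 0.22 (SE). Neither had an unadjusted edgeR p under 0.05 (0.0503 and 0.0511), and their groups overlapped. Ndufa3, an accessory subunit of complex I, had a log2 fold change of -0.80 ± 0.40 (SE), which rests on library 13 and was -0.45 without it and -0.51 without library 10.

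**Figure D4:**
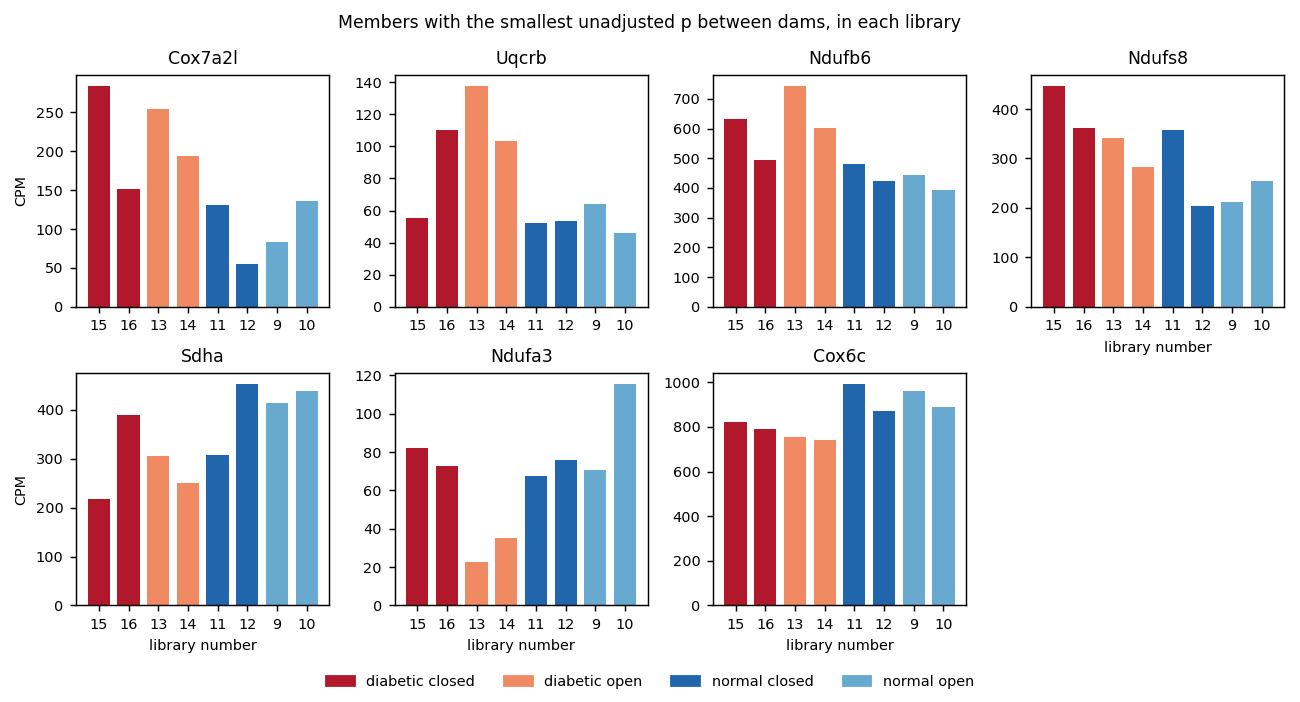
CPM in each library (bars from 0, coloured by group, diabetic libraries left of normal ones) of 7 members chosen for the smallest unadjusted p in each direction between dams. Bars of Cox7a2l and Ndufb6 are taller in all 4 diabetic libraries and bars of Cox6c are taller in all 4 normal libraries, while those of Ndufa3 are lowest in the diabetic open libraries.

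Summed levels of markers of other cell types differed between libraries, and the ranges of the dams overlapped for each list. Between dams edgeR called 0 markers of any list (0% of all genes), while DESeq2 called 1 each of the mesoderm, blood, endothelial and heart lists (0.314% of all genes). An unadjusted edgeR p under 0.05 with a higher level in diabetic libraries was found for 4 of 8 mesoderm, 3 of 3 blood, 3 of 4 endothelial and 1 of 3 heart markers tested (4.55% of all genes), and one with a lower level for 1 of 5 surface ectoderm markers, against 0 of 8 neural progenitor markers in either direction. Markers of paraxial mesoderm and mesenchyme (8 of 8 counted) summed to 287 to 1582 CPM in diabetic libraries and 150.4 to 422 CPM in normal libraries. Markers of primitive blood (5 of 6 counted, Hbb-y at 0 in every library) summed to 4.36 to 1009 CPM in diabetic libraries and 0.296 to 63.3 CPM in normal libraries. Most of the highest sums, in libraries 13 and 14, was Hba-x, at 891 and 994 CPM, and Klf1 had 1 count over all libraries. Of the endothelial markers, Kdr had 1 count and Flt1 had 5 over all libraries. Endothelial markers (6 of 6) summed to 53.0 to 291 CPM in diabetic libraries and 26.1 to 58.0 CPM in normal libraries, heart markers (5 of 9, with Nkx2-5, Tnnt2, Myh6 and Myh7 at 0) to 0 to 109 CPM in diabetic libraries and 0 to 6.17 CPM in normal libraries, and surface ectoderm markers (5 of 5) to 47.0 to 320 CPM in diabetic libraries and 61.3 to 277 CPM in normal libraries. The part of these tissues in the values of Cox7a2l, Ndufb6, Cox6c and Uqcrb was not tested. Without library 13, which had the highest mesoderm, endothelial and heart sums, the log2 fold changes were 1.07 for Cox7a2l, 0.39 for Ndufb6, -0.25 for Cox6c and 0.75 for Uqcrb. With a covariate for the libraries in which Xist exceeded Ddx3y they were 1.00 for Cox7a2l, 0.38 for Ndufb6, -0.36 for Cox6c and 0.76 for Uqcrb.

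Within the open neural tube, 0 members passed edgeR's adjusted threshold (0% of all genes), 3 had an unadjusted p under 0.05 (7.22% of all genes), and DESeq2 called 1, Ndufa3 (1.79% of all genes). The median log2 fold change of the members was 0.05, against 0.02 for all genes. Ndufa3, a small accessory subunit of complex I, had 22.5 and 34.98 CPM in the diabetic open libraries, against 70.8 and 115 CPM in the normal open libraries, while it had 81.9 and 72.8 CPM in the diabetic closed libraries and 67.5 and 76.0 CPM in the normal closed libraries. The 2 diabetic open libraries were below the other 6. The log2 fold change in the open tube was -1.70 ± 0.41 (SE), with an adjusted p of 0.598 by edgeR's quasi-likelihood test and 0.0301 by DESeq2.

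The call of Ndufa3 depended on the tool and, of the diabetic open libraries, on library 13. DESeq2 was not rerun without library 9 or library 10. By edgeR the log2 fold change was -1.37 without library 10, -1.42 without library 13 and -1.99 without library 9. DESeq2 gave an adjusted p of 0.167 and a log2 fold change of -1.40 without library 13, and an adjusted p of 0.0159 and a log2 fold change of -2.06 without library 14, where 3.54% of all genes were called. With no filter on low counts edgeR called Ndufa3 at an adjusted p of 0.0442 (0.910% of all genes). Beside this result, blood markers summed to 922 and 1009 CPM in the diabetic open libraries and 63.3 and 1.06 CPM in the normal open libraries, mesoderm markers to 1582 and 287 CPM in the diabetic open and 150.4 and 422 CPM in the normal open libraries, and neural progenitor markers to 116 and 1025 CPM in the diabetic open and 1439 and 920 CPM in the normal open libraries. Their part in the level of Ndufa3 was not tested.

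Uqcrb (log2 fold change 1.11 ± 0.42, SE) and Ndufb6 (0.67 ± 0.26, SE) were the members with the smallest unadjusted p among those higher in the diabetic open than in the normal open libraries. Ndufb5, an accessory subunit of the membrane arm of complex I, rests on library 10. It had 47.3 and 38.7 CPM in the diabetic open libraries, against 20.2 CPM in library 9 and 0.529 CPM, or 3 counts, in library 10. The log2 fold change was 1.98 ± 1.10 (SE) with both normal open libraries, 1.02 ± 0.67 (SE) without library 10 and 6.32 ± 1.01 (SE) without library 9. In the fit without library 9 edgeR called it at an adjusted p of 0.0396 (0.392% of all genes), with the lone library 10 assumed to vary like the other groups.

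Within the closed neural tube, 0 members were called by edgeR or by DESeq2 (0% and 0.0170% of all genes), and 2 had an unadjusted p under 0.05 (1.17% of all genes), both in complex IV. The median log2 fold change was 0.09, against 0.03 for all genes. Cox7a2l had a log2 fold change of 1.22 ± 0.47 (SE) from the values given above, which was 0.70 without library 15, 0.74 without library 12 and 1.995 without library 11. Cox6b2, the testis form of a subunit, had 3.57 and 2.79 CPM in the diabetic closed libraries against 0 in both normal closed libraries. The 38 counts of the diabetic closed group stood at 12.8 times a floor of 3 counts over the normal closed group. This ratio leaves out the counting error of the 38 and the spread between libraries, so it is not a lower bound. Its other levels were 3.602 and 2.15 CPM in the diabetic open libraries and 1.18 and 4.23 CPM in the normal open libraries, so that only the normal closed libraries were without it. Among members with a negative fold change, Ndufb9, an accessory complex I subunit, had -0.47 ± 0.28 (SE).

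The second comparison sets the closed against the open neural tube, with both dams in 1 fit. By edgeR's quasi-likelihood test with Benjamini-Hochberg adjustment 0 of 65 members were called (0% of all genes), and DESeq2 called 0 (0.0811% of all genes). An unadjusted p under 0.05 was found for 1 member, Ndufv3 (3.32% of all genes). Fold changes were positive for 29 and negative for 36 members, with a median of -0.03, against 0.07 for all genes, and this split moved with the scaling. It was 24 to 41 with DESeq2's size factors and 21 to 44 with library totals alone, where the median was -0.08. By complex the medians were -0.09 (I), -0.06 (II), -0.17 (III), 0.03 (IV) and 0.0047 (V). No member had every closed library above every open library (1.68% of all genes did), and 1, Ndufb3, had every closed library below every open library (1.07% of all genes did).

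**Figure D5:**
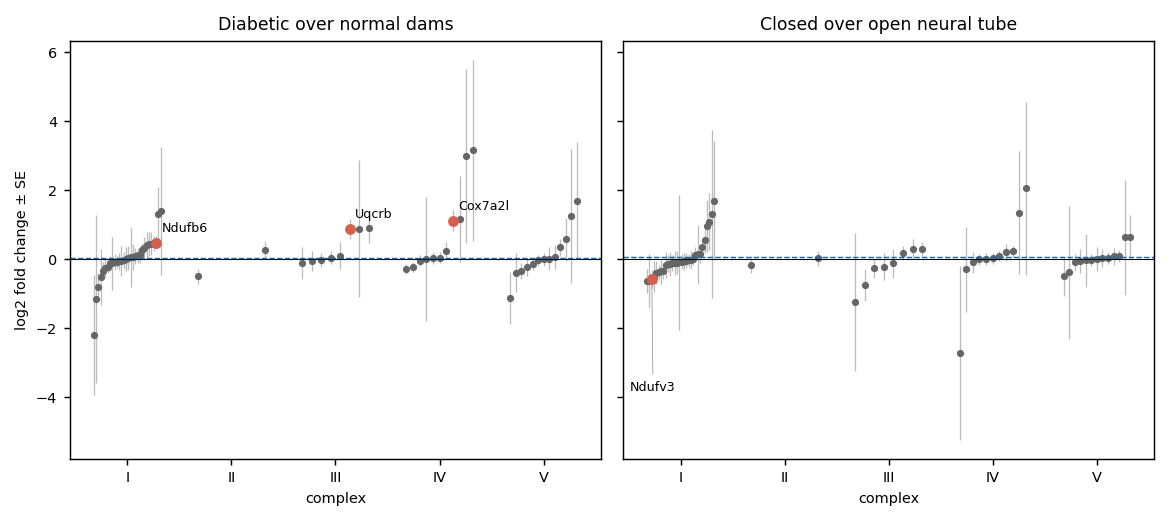
Log2 fold change ± SE of the members tested, 1 left out, by complex, for diabetic over normal dams (left) and closed over open neural tube (right), with the median of all genes as a dashed line (0.04 left, 0.07 right). Red points, with names, mark an unadjusted p under 0.05, and most members lie close to 0.

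Ndufv3, an accessory subunit of the flavin-bearing module of complex I, had 140.4 and 120.4 CPM in the diabetic closed libraries and 145 and 170 CPM in the normal closed libraries, against 189 and 280.1 CPM in the diabetic open libraries and 136 and 284 CPM in the normal open libraries. Library 9 was among the lowest, so that the regions overlapped. The log2 fold change was -0.58 ± 0.26 (SE), with an unadjusted edgeR p of 0.0450. Ndufb3, another accessory subunit of complex I, had 23.6 and 32.1 CPM in the diabetic closed libraries and 16.4 and 27.5 CPM in the normal closed libraries, against 34.8 and 38.9 CPM in the diabetic open libraries and 44.8 and 40.6 CPM in the normal open libraries. The regions did not overlap, and the log2 fold change was -0.64 ± 0.35 (SE).

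Of the other members named for this comparison, Ndufs8, Uqcr11, Ndufa3 and Cox7b had positive log2 fold changes of 0.36 ± 0.21, 0.31 ± 0.20, 0.57 ± 0.39 and 0.23 ± 0.16 (SE), and Ndufc1 and Uqcrc2 had negative ones of -0.37 ± 0.20 and -0.74 ± 0.46 (SE). Without library 11 the value was 0.20 for Ndufs8 and 0.12 for Cox7b, without library 10 it was 0.14 for Cox7b, and without library 13 it was 0.23 for Ndufa3. The region values for Uqcr11 rest on library 15 (1864 CPM), without which the fold change was 0.11. Those for Uqcrc2, a core protein of complex III, rest on library 10 (92.1 CPM, against 19.8 to 39.6 CPM elsewhere), without which the fold change was -0.24. Neural progenitor markers summed to 819 to 1284 CPM in closed and 116 to 1439 CPM in open libraries, blood markers to 0.296 to 209 CPM in closed and 1.06 to 1009 CPM in open libraries, mesoderm markers to 320.0 to 844 CPM in closed and 150.4 to 1582 CPM in open libraries, and endothelial markers to 26.1 to 81.9 CPM in closed and 52.4 to 291 CPM in open libraries. Heart markers summed to 0 to 5.75 CPM in closed and 0 to 109 CPM in open libraries, and surface ectoderm markers to 95.7 to 277 CPM in closed and 47.0 to 320.3 CPM in open libraries. Their part in the region values was not tested.

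Among embryos of diabetic dams alone, 0 members were called by edgeR or DESeq2 between closed and open tube (0% and 0.432% of all genes), and 1, Ndufa3, had an unadjusted p under 0.05 (2.78% of all genes), with a log2 fold change of 1.47 ± 0.40 (SE). The same diabetic open libraries enter this value and that of Ndufa3 between dams, so neither supports the other. Uqcr11 had 0.58 ± 0.27, Ndufv3 -0.81 ± 0.37 and Ndufa12, an accessory subunit of complex I, -0.63 ± 0.29 (SE). Without library 15 Uqcr11 was at 0.25 and Ndufa12 at -0.28, without library 16 Ndufa12 was at -1.06, and without library 14 Ndufv3 was at -0.47. Among embryos of normal dams alone, 0 members were called by edgeR or DESeq2 (0% and 0.234% of all genes), and 2 had an unadjusted p under 0.05 (3.40% of all genes). These were Uqcrc2, with -1.56 ± 0.57 (SE) and -0.71 without library 10, and Cox6b2. For Cox6b2 both closed libraries had 0 counts against 1.18 and 4.23 CPM in the open libraries, which together stood at 9.40 times the floor used above. That ratio is not a lower bound either, and it rests on the same normal closed libraries as the Cox6b2 value between dams. Ndufb5 (1.63 ± 1.09, SE) and Cox7b (0.37 ± 0.25, SE) had the smallest p of those with positive values. Ndufb5 was at 0.65 without library 10, 1.0013 without library 12 and 5.95 without library 9, and Cox7b at 0.13 without library 11 and 0.19 without library 10. In embryos of diabetic dams 41 members were positive and 24 negative, a split that was 34 to 31 with DESeq2's size factors and 35 to 30 with library totals. The members' median log2 fold change was 0.06 in embryos of diabetic dams (all genes 0.03) and -0.03 in embryos of normal dams (all genes 0.04).

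Whether the difference between dams itself differed between regions was tested as an interaction. By edgeR's quasi-likelihood test with Benjamini-Hochberg adjustment 0 members were called (0% of all genes), DESeq2 called 0 (0.147% of all genes), and 2 members had an unadjusted p under 0.05 (3.74% of all genes). Ndufa3 had an interaction of 1.79 ± 0.56 (SE, log2), its difference between dams being more negative in the open than in the closed tube, and an adjusted p of 1.00 by edgeR. Ndufa12 had an interaction of -1.003 ± 0.41 (SE), from 296 and 512 CPM in the diabetic closed libraries, 655 and 632 CPM in the diabetic open libraries, 546 and 480 CPM in the normal closed libraries and 419 and 400.1 CPM in the normal open libraries. Library 15 had the lowest level and the diabetic open libraries the highest, and without library 15 the interaction was -0.63. Ndufb9 had an interaction of -0.70 ± 0.39 (SE), and of -0.46 without library 10. The median interaction over members was 0.10, against 0.01 for all genes, at a median SE of 0.59.

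Members differed in how steady they were over the 8 libraries. Among genes with a mean of at least 10 CPM the median coefficient of variation was 0.245 for the 53 members and 0.346 for all 6943 genes, and among those with at least 100 CPM it was 0.226 for the 35 members and 0.213 for all 1816 genes. By complex, at 100 CPM, it was 0.230 for complex I (16 members), 0.248 for complex II (2), 0.207 for complex III (3), 0.117 for complex IV (7) and 0.276 for complex V (7). Complex IV spanned the widest range, with Cox4i1 at 0.0896 and Cox7a2l at 0.491. Without library 13 the value was 0.126 for complex IV and 0.222 for the 35 members.

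In 3 of these 35 members (8.57%, against 6.39% of all genes at this level), 1 library had less than 50% of the next lowest level, and none had 1 library at over 2 times the next highest. Ndufa7, an accessory complex I subunit, had 87.7 CPM in library 12 and 340.1 to 457 CPM in the others. Ndufv2, a core subunit with an iron-sulphur cluster, had 102 CPM in library 12 and 227 to 436 CPM in the others. Atp5k, the e subunit of ATP synthase, had 40.4 CPM in library 11 and 92.0 to 142 CPM in the others. These were singled out after their values were seen. A further 6 members had no count in at least 1 library and at least 50 counts in another (Atp5h, Atp5s, Cox6b2, Cox7a1, Ndufb10 and Ndufs1), none of them above 8.88 CPM.

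Genes that serve the complexes were followed by the same fits. Of 37 assembly factors looked up, 26 were in the files and tested, and between dams 13 had positive and 13 negative fold changes, with 0 called by edgeR or DESeq2 and 0 at an unadjusted p under 0.05 (4.55% of all genes). Between regions 15 were positive and 11 negative, with 0 called and 2 at an unadjusted p under 0.05 (3.32% of all genes), Ndufaf3 (0.82 ± 0.30, SE) and Ecsit (0.80 ± 0.35, SE), both of complex I assembly. DESeq2 called 1 assembly factor, Cox15 of haem A synthesis, between dams in the open tube (1.79% of all genes), where it had 0 counts in both diabetic open libraries and 5.33 and 7.59 CPM in the normal open libraries. The list of carriers and exchangers also held Ndufab1, Atpif1, Usmg5 and the member Cox7a2l. Of its 9 genes tested, 7 were positive and 2 negative between dams. An unadjusted edgeR p under 0.05 was found for 2 (4.55% of all genes), among them Cox7a2l, which is thus counted a second time here. Between regions 3 were positive and 6 negative, with 1 at an unadjusted p under 0.05 (3.32% of all genes). Neither edgeR nor DESeq2 called any of these 9 genes. Slc25a4, an ADP/ATP exchanger, had 905 and 942 CPM in the diabetic closed libraries and 2212 and 1036 CPM in the diabetic open libraries, against 1056 and 523 CPM in the normal closed libraries and 802 and 586 CPM in the normal open libraries. Cycs, which encodes cytochrome c, ran from 957 to 1740.5 CPM, with a log2 fold change of 0.15 ± 0.18 (SE) between dams.

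Among 13 citrate cycle genes, 8 were positive and 5 negative between dams and 6 positive and 7 negative between regions. Among 8 genes of pyruvate entry 5 were positive and 3 negative in both comparisons. Among 14 regulators of mitochondrial genes 8 were positive and 6 negative between dams and 12 positive and 2 negative between regions. Of all genes tested, 6539 were positive and 5240 negative between regions, a comparison in which the split of the members moved with the scaling. No gene of these lists was called by edgeR in any comparison, and DESeq2 called none. Counts at an unadjusted p under 0.05 were 1 higher and 1 lower for the citrate cycle between dams (4.55% of all genes), and 0 for the others in these 2 comparisons. Cs, citrate synthase, ran from 457 to 597 CPM. The regulators Nrf1 (34.4 to 98.5 CPM), Gabpa (24.2 to 95.5 CPM) and Yy1 (53.9 to 118 CPM) were counted in every library, and Ppargc1a stood at 0 to 8.83 CPM. The 13 genes encoded in mitochondrial DNA had no entry in the deposited counts under the symbols looked up, so they could not be analysed.

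Promoters were read from RefSeq for the 69 members with an entry, as 250 bases before to 50 bases after the start on GRCm38.p6, and searched on both strands for short core motifs of factors known to act on these genes. Percentages are of genes with the core in any of their promoters. The NRF-1 core GCATGCGC was found for 14.5% of the members and 3.94% of the 17492 protein-coding genes with an entry. The ETS core CCGGAAG was found for 23.2% and 12.9%, and the YY1 core AANATGGC for 26.1% and 7.46%. By complex, the YY1 core was found for 37.5% of complex I genes (of 32), 31.3% of complex V (16) and 7.69% of complex IV (13). It was found for none of complexes II (3) and III (5). The promoter of Uqcr11, the most abundant complex III member, at chr10:80406772-80407071 on the minus strand of GRCm38.p6, is shown because it holds both an ETS and an NRF-1 core, in capitals.
Uqcr11: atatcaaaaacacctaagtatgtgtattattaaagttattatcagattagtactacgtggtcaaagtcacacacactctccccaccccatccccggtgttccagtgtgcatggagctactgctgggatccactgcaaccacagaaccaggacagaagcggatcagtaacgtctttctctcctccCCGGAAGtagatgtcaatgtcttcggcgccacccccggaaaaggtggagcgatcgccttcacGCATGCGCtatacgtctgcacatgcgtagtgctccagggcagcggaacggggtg
The cores start at bases 185 and 247 of the 300. A match describes the letters only, and no binding was measured.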

How the data were processed

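The authors deposited, for each of the 8 libraries, whole-number tag counts per gene symbol, not normalized. Per the labels' protocols, 7 ng of total RNA prepared with Trizol went into each barcoded SOLiD SAGE library. Reads were placed on mm9, a build that the submitters' processing notes name. Which aligner and counter made the counts, whether strand was used and what was done with tags shared between genes is not given in the sources used here. Levels are CPM, counts scaled by the library total (5041586 to 16655583 counts).

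Tests were run on all genes that passed edgeR's filter (minimum count 10, minimum total 15; 11779 genes, 65 members) with edgeR 4.0.16 in R 4.3.3, using TMM factors, the quasi-likelihood test and Benjamini-Hochberg adjustment over all genes, with dam and region additive or a model of the 4 groups. Fold changes use TMM scaling, levels do not. DESeq2 1.42.0, other scalings, no filter, a covariate for the libraries where Xist exceeded Ddx3y, and leaving out each library were the alternatives. The scripts were tested on simulated counts. With 2 libraries a group, p-values measure only the spread between libraries. Library numbers are not shared between groups, so no samples were paired.

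Members named with values were those called by edgeR or DESeq2, the 4 (additive comparisons) or 2 (other contrasts) with the smallest p in each direction, the 2 most abundant of each complex, isoform sets, complex II, and members without counts; the text says where a member was picked from its values. The members, lists and tests were chosen with earlier results of these data known. Tags came from GENCODE M21 (GRCm38), promoters from RefSeq (GRCm38.p6), and tables and figures from Python 3.11.15. No coordinates on mm9 are given. The values of 1 member are not reported here, although it is counted in sums and tallies.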

Additional observations from a re-analysis of the deposited data

Results flagged for a closer look

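Of 156 sides tested over the named members and sums, 5 (3.21%) had 1 of 4 libraries far from the other 3, where chance gives about 1 in 20. The summed accessory subunits of complex I were at 4400.5 CPM in library 16 (diabetic closed), against 3913 to 3980.2 CPM in the other closed libraries. Uqcrb stood at 110.5 CPM in library 16, against 52.0 to 55.3 CPM in the other closed libraries. Uqcr11 was at 1376 CPM in library 9 (normal open), against 1053 to 1092 CPM in the other open libraries. For Uqcrc1 the distant value was 520 CPM in library 14 (diabetic open), against 379 to 398 CPM in the other open libraries. Atp5g1 reached 431 CPM in library 10 (normal open), against 214 to 247 CPM in the other open libraries. No member's difference between dams was shown to differ between regions by edgeR's adjusted test of the interaction.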

How the results depend on the processing

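Settings changed few calls. With no filter on low counts edgeR called 1 member between dams over both regions, Cox7a2l (log2 fold change 1.123, adjusted p 0.00558), and 1 in the open tube, Ndufa3 (adjusted p 0.0442). In the open tube DESeq2 called 1 (Ndufa3), and 1 again without library 14 but 0 without library 13, settings added after seeing the data. Leaving out each library in turn gave 0 to 1 members called between dams in the open tube, the 1 being Ndufb5 without library 9, and 0 in the other 6 comparisons; the cause was not tested. The members' median log2 fold change ranged, over the same omissions, from -0.02 to 0.08 between dams, from -0.06 to 0.0088 between regions, from -0.12 (without library 14) to 0.057 between dams in the open tube, from -0.0078 to 0.28 (without library 12) between dams in the closed tube, from 0.01 to 0.08 between regions in embryos of diabetic dams, from -0.28 (without library 12) to 0.0086 between regions in embryos of normal dams, and from 0.03 to 0.18 for the interaction. The 3 medians given with their library moved by more than 0.150, the pooled SD within groups of the members' median level on the log2 scale, and the other medians moved by less than it (for the interaction, than 2 times it). Of the 7 medians, 5 changed sign without some library. The named members kept their sign under the settings run. No paired analysis was run, because the library numbers do not show which libraries, if any, belong together. With 4 libraries a side the median SE between dams was 0.30, and changes of several SE also went uncalled. With the filter on low counts, Cox7a2l at 1.122 ± 0.31 (SE) had an adjusted edgeR p of 0.999, and edgeR called 0% of all genes. The absence of a call therefore sets no close limit on a member's change. Members under about 10 CPM were counted too thinly for less than large changes.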
